A study of Mus musculus with 24 samples.

Results

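The response of FosKO macrophages to 0.5 h of lipopolysaccharide was taken from 6 of the 24 RNA sequencing libraries, 3 from unstimulated cells (0 h) and 3 from cells stimulated for 0.5 h. Of the 24273 genes in the table, 13901 passed a filter on low values and were tested, and all of them are covered by the comparison. The cells were bone marrow-derived macrophages, which are macrophages grown in culture from mouse bone marrow, of the C57BL/6 strain. They were grown for 7 days in medium conditioned by L cells, kept overnight in 1% serum and stimulated with LPS at 100 ng/ml. The FosKO genotype was LysM-Cre with Fos flanked by loxP sites on both alleles, so that Cre, driven from the lysozyme gene Lyz2 in myeloid cells, was to delete Fos during differentiation. Control cells, called LysM-Cre here, carried the same driver. The design text names no other allele for them, whereas the text of the study gives them 1 floxed copy of Fos, and the values cannot settle which applied. The 6 control libraries at 0 h and 0.5 h serve below to test where the FosKO response differed, and all 24 libraries enter the estimate of each gene's spread behind the calls.

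LPS is a component of the bacterial outer membrane that is bound by TLR4 and its partners CD14 and MD-2. Within minutes the receptor activates the inhibitor of kappa B kinases, which free NF-kB dimers to enter the nucleus, and the kinase TPL-2 (encoded by Map3k8), which activates ERK. ERK phosphorylates ternary complex factors (TCFs) bound with the serum response factor SRF at CArG boxes, and immediate early genes such as Egr1 and Fos are transcribed without new protein synthesis. FOS is a subunit of the AP-1 transcription factor and pairs with JUN proteins. The study asked how TPL-2, ERK, TCFs and FOS shape the genes induced by LPS, among them interferon beta, and the 0.5 h time shows the earliest part of that response in cells labelled as lacking FOS.

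The targeted gene did not verify the labels. On the deposited log2 scale the 3 unstimulated FosKO libraries had Fos at 12.72, 12.41 and 12.67, and the 3 stimulated ones had it at 12.81, 12.64 and 12.79. Fos in LysM-Cre stood at 11.17, 11.07 and 11.10 without LPS and reached 13.43, 13.57 and 13.56 after 0.5 h. The libraries labelled FosKO thus held more Fos signal than the controls before LPS and less after it, with no overlap at either time. A single value for the whole gene does not show which exons the signal came from, so every statement on genotype below rests on the labels. P-values measure the spread between these libraries, which the methods call biological replicates. Lyz2, the gene that carries Cre, lay between 16.08 and 16.28 in the 6 FosKO libraries and between 10.87 and 11.04 in LysM-Cre at 0 h.

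Libraries were close to each other within groups (r across genes of at least 0.995, with genes not being independent replicates), and the median SD of a gene was 0.083 at 0 h and 0.074 at 0.5 h. The table does not give the number of reads of each library. Replicate 1 at 0.5 h held less 18S ribosomal RNA (Rn18s-rs5 at 16.65) than the other 5 FosKO libraries (18.65 to 19.17), and 824 genes were called without it against 823 with it, of which 682 were the same. Of 11 macrophage marker rows, 10 did not pass the test and Cd14, which LPS is known to act through, rose by 0.62. Their summed linear level, in units of 1e3, was 323 to 341 before LPS and 335 to 364 after it. Markers of other cell types were near the floor, with summed levels of 34.9 to 45.3 for 5 B cell markers, 20.3 to 24.2 for 7 T and NK cell markers and, for 7 neutrophil markers, 54.7 to 65.2 before LPS and 70.1 to 77.3 after it. The 4 neutrophil markers tested lay between 0.24 and 0.40 and did not pass, and 1 was called with replicates paired by number. In bulk samples fewer cells of a type and less RNA per cell cannot be told apart.

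Stimulation for 0.5 h raised immediate early transcription factors, feedback inhibitors, cytokines and chemokines. The limma fit called 823 of 13901 genes (5.92%) at an adjusted p under 0.05, of which 619 (4.45%) were higher and 204 (1.47%) lower. At least a 2-fold change was seen in 78 higher genes (0.561%) and 11 lower genes (0.0791%), 25 genes rose at least 4-fold and 8 at least 8-fold. Fitting the 12 FosKO libraries alone gave 469 calls, the 6 alone 301, and leaving out replicate 3 at 0.5 h gave 542, while the genes changed at least 2-fold numbered 87, 88 and 83 against 89. Most changes were small, with a median size of 0.29 on the log2 scale over the called genes. Higher genes made up 75.2% of the calls, but quantile normalisation, which forces all libraries to one distribution, gave 543 higher and 537 lower (50.3% higher), so the balance of small changes depends on the scaling. The count of genes changed at least 2-fold hardly depended on it (82 higher and 13 lower).

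**Figure D1:**
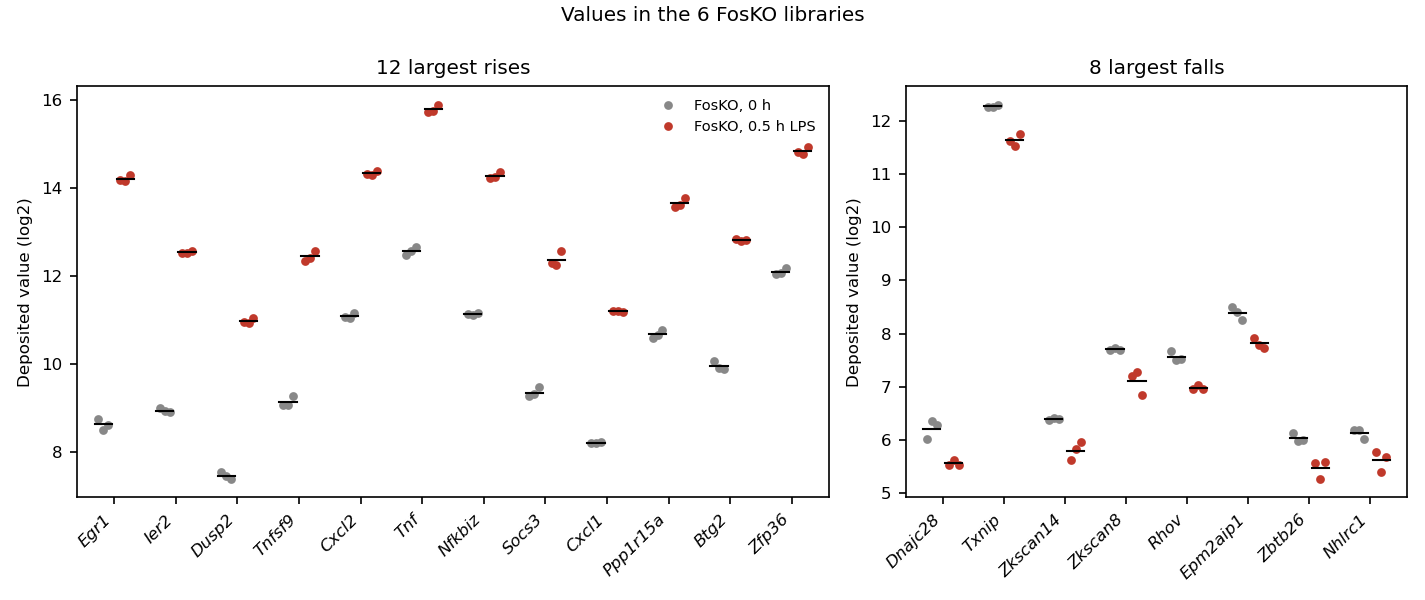
Deposited log2 values in the 3 FosKO libraries at 0 h and the 3 at 0.5 h for the 12 largest rises and the 8 largest falls. The ranking took in only genes that passed the test, code for protein, have groups that do not overlap and reach a linear value of 50 on average. Each dot is a library and each bar a group mean. Egr1 moves from 8.64 to 14.21 on average, whereas no fall shown exceeds 0.65.

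The transcription factor Egr1, a zinc finger protein induced by ERK signalling, rose more than any other gene tested. Egr1 went from 8.77, 8.52 and 8.63 to 14.18, 14.17 and 14.29. The 3 stimulated libraries lay close together and far above the unstimulated ones, a difference of 5.58 (SE 0.10, adjusted p 7.38e-20) or 47.7-fold. Egr2 rose from 9.54, 9.43 and 9.54 to 12.18, 12.28 and 12.27, and Egr3 from 5.50, 5.17 and 5.33 to 7.47, 7.37 and 7.32. The groups did not overlap in any of the 3 EGR genes, where 19.4% of all genes tested had groups without overlap in either direction, and this was a condition of the ranking for Egr1. Egr2 rose by 2.74 (SE 0.07, adjusted p 1.93e-17) and Egr3 by 2.05 (SE 0.09, adjusted p 6.44e-13). Their corepressor Nab2 rose by only 0.28 and lost its call when the 6 libraries were fitted alone, and Nab1 was at 0.02 (adjusted p 0.783).

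Other immediate early genes rose with them. Ier2, a small nuclear protein gene with a single exon, went from a mean of 8.95 ± 0.04 (SD, n = 3) to 12.53, 12.52 and 12.57, a 12.1-fold rise (log2 3.59, SE 0.06, adjusted p 1.25e-20). Btg2, which restrains proliferation and recruits the CCR4-NOT deadenylase, went from 10.09, 9.91 and 9.89 to 12.85, 12.79 and 12.83 (log2 2.86, adjusted p 5.53e-19). Ppp1r15a, the stress-induced phosphatase subunit GADD34 that restores translation, went from 10.61, 10.68 and 10.77 to 13.58, 13.63 and 13.79 (log2 2.98, adjusted p 5.46e-19). All 3 belong to the 12 largest rises, for which groups without overlap were a condition. Ier3, a survival factor, rose by 2.53, Phlda1 by 2.57, Csrnp1 by 2.52, Gadd45b by 1.77 and the polo-like kinase Plk2 by 1.27. Of the 19 members tested in the list of IER, BTG and other immediate early genes, 14 rose and none fell. This list and those below were chosen with earlier results of these data known, so their counts are descriptions and not tests. Over all genes tested, 4.45% were called higher and 1.47% lower. The 5 other members, Arc, Csrnp2, Ctgf, Rgs2 and Ier5l, lay between -0.44 and 0.44.

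The AP-1 family changed in some members only. Junb went from 11.41, 11.40 and 11.51 to 13.57, 13.57 and 13.67 (log2 2.16, SE 0.06, adjusted p 1.32e-16). Jun went from 11.62, 11.63 and 11.62 to 12.79, 12.80 and 12.82 (log2 1.18, adjusted p 5.05e-15). The Jun libraries of a group were nearly equal, and the groups were far apart. Among the FOS relatives, Fosb rose from 4.37, 4.41 and 4.45 to 6.13, 5.92 and 5.42, a rise of 1.41 (SE 0.27, adjusted p 0.00198) with a wide spread at 0.5 h. Fosl1 was at 0.04 (adjusted p 0.921) and Fosl2 at 0.21, not called here (adjusted p 0.0540) but called when replicates were paired by number (adjusted p 0.0141). The small MAF protein gene Maff rose by 1.85, Atf3 by 0.57 and Jund by 0.29. In all, 8 of 20 AP-1 family members rose and none fell, where 4.45% of all genes tested were called higher. With the 6 libraries fitted alone 6 members were called, and 11 when replicates were paired by number. The list median was 0.18 against 0.00 over all genes tested.

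In a list of 18 immediate early genes known as targets of TCF and SRF, 17 were tested. Of these 13 rose, 12 of them by at least 2-fold, and the list median was 2.16. The shares over all genes tested were 4.45% called higher and 0.561% raised at least 2-fold. The 4 list members that did not pass were Fos (0.15, adjusted p 0.396), Fosl1, Nr4a3 (0.00064, adjusted p 0.998) and Srf (-0.02, adjusted p 0.829). Of the orphan nuclear receptors, Nr4a1 rose from 5.75, 5.59 and 5.50 to 8.10, 7.73 and 7.72 (log2 2.24, SE 0.12, adjusted p 1.52e-11), and Nr4a2 was at 0.11 (adjusted p 0.626). Among cytoskeletal genes that SRF controls through another class of cofactors the share called was near that of all genes (4.45% called higher). Of 16 tested, which include beta-actin Actb (17.45, 17.44 and 17.48 without LPS, 17.47, 17.52 and 17.63 with it), 1 passed the test, Filip1l (0.29, adjusted p 0.0459), and it lost the call under 8 of the alternatives. The list median was -0.03, and 2 members were called with replicates paired by number and 4 after quantile normalisation.

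Feedback inhibitors of MAP kinases were among the largest rises. Dusp2, a dual-specificity phosphatase that removes phosphate from ERK and p38 in the nucleus, went from 7.55, 7.46 and 7.40 to 10.96, 10.94 and 11.06 (11.4-fold, SE 0.09 on the log2 scale, adjusted p 1.51e-17). Dusp1, which prefers p38 and JNK, went from 11.64, 11.56 and 11.62 to 14.05, 13.99 and 13.97 (log2 2.39, SE 0.04, adjusted p 1.25e-20). Dusp5, an ERK phosphatase of the nucleus, went from 7.01, 6.92 and 6.94 to 8.73, 8.63 and 8.62 (log2 1.70, adjusted p 2.00e-13). The stimulated and unstimulated libraries did not overlap in any of the 3 genes (19.4% of all genes tested), which was a condition of the ranking for Dusp2. Dusp4 rose by 1.05 and Dusp8 by 0.76. The other 5 of 10 phosphatases tested did not pass, including the cytoplasmic ERK phosphatase Dusp6 at -0.02 (adjusted p 0.883). With replicates paired by number 6 of the 10 were called, and 7 after quantile normalisation. Of all genes tested 4.45% were called higher. Of the ERK pathway inhibitors of the Sprouty and Spred families, Spry1 rose by 0.86 and Spry2 by 0.40, and 4 did not pass. Errfi1, an inhibitor of EGF receptors, rose by 1.36, from 8.46, 8.50 and 8.43 to 9.79, 9.90 and 9.78.

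Letter matches for 7 DNA motifs were looked up in promoter windows of RefSeq starts on GRCm38.p6, from 250 bases before to 50 after each start, on both strands except for TATAAA, which was read on the gene's strand. Of the 78 genes that rose at least 2-fold, 55 had a window (70.5%), too few for a comparison, so shares of motifs are not compared between these genes and the rest. Among the 9862 tested genes with a window, 1.46% held a CArG box, 3.56% the cyclic AMP response element (CRE) TGACGTCA, 6.17% an NF-kB consensus and 6.39% the AP-1 element TGANTCA. The other 3 motifs, TATAAA, the interferon-stimulated response element (ISRE) and the ETS element CCGGAAG, were held by 5.47%, 4.14% and 20.7%. The stretches below are shown because they place each element before the start of a gene described here, with the match in capitals, 5′ to 3′ on the gene's strand. A match is a description of letters and not a measured binding site. Before Dusp5 (chr19:53529058-53529087, plus strand) lay 2 CArG boxes that abut each other, the first 82 bases before the start. Btg2 (chr1:134079303-134079332, minus strand), Plk2 (chr13:110394971-110395000, plus strand) and Ppp1r15a (chr7:45526269-45526291, minus strand) each had a CRE, at 166, 62 and 12 bases before the start.
Dusp5: aatacCCATATTTGGCCTTATATGGgcact
Btg2: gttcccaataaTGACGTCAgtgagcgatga
Plk2: agcgctcgccgTGACGTCAcgaggccccgc
Ppp1r15a: cgcctctccggTGACGTCAgcac

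Of 14 NF-kB inhibitors and feedback genes, 4 rose at least 2-fold, as did 0.561% of all genes tested. Of the 5 NF-kB subunit genes 4 rose, none of them 2-fold. Nfkbia, which encodes the inhibitor I kappa B alpha, went from 11.96, 12.03 and 12.12 to 14.48, 14.49 and 14.57 (log2 2.48, SE 0.04, adjusted p 2.07e-20). Tnfaip3, the ubiquitin-editing enzyme A20, went from 12.12, 12.18 and 12.28 to 14.53, 14.55 and 14.67 (log2 2.39, SE 0.05, adjusted p 5.19e-18). Nfkbiz, a nuclear member of the I kappa B family that acts as a coactivator of secondary genes, went from 11.14, 11.13 and 11.18 to 14.24, 14.25 and 14.36 (8.77-fold, SE 0.04 on the log2 scale, adjusted p 3.37e-22). The stimulated libraries of each gene stood far above the unstimulated ones. Nfkbid rose by 2.00, Trib1 by 0.95, Nfkbie by 0.52 and Nfkbib by 0.47. In all 10 of 14 members rose (6 of them with the 6 libraries fitted alone), where 4.45% of all genes tested were called higher. The list median was 0.36. Of the 5 subunit genes, Rel rose by 0.37, Nfkb2 and Relb by 0.26 each and Rela by 0.17, whereas Nfkb1 was at 0.10 (adjusted p 0.282). These 4 calls are weak, since 1 of the 5 was called when the 6 libraries were fitted alone, and Nfkb1 was called when replicates were paired by number (adjusted p 0.0278).

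Some of the factors that end cytokine messages and cytokine signalling rose in the same libraries. Zfp36, tristetraprolin, which binds AU-rich elements and destabilises Tnf mRNA, went from 12.04, 12.08 and 12.18 to 14.83, 14.78 and 14.93 (log2 2.74, SE 0.07, adjusted p 1.13e-17). Its relatives Zfp36l1 and Zfp36l2 rose by 0.88 and 0.28, and the endoribonuclease gene Zc3h12a (Regnase-1) by 1.23. Of 11 mRNA decay factors 7 rose and 1, Khsrp, fell by 0.08, a call that was lost under 7 alternatives. Over all genes tested, 4.45% were called higher and 1.47% lower. With the 6 libraries alone 5 of the 8 calls held. Socs3, a suppressor of signalling through the IL-6 receptor chain gp130, went from 9.28, 9.33 and 9.48 to 12.29, 12.27 and 12.57 (8.10-fold, SE 0.07 on the log2 scale, adjusted p 5.19e-18). The kinase gene Pim1 rose by 1.42, Pim3 by 0.67 and Socs1 by 0.65, and the other 7 of the 11 SOCS and Pim genes did not pass. Socs1 was not called when the 6 libraries were fitted alone.

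Secreted mediators rose unevenly. Tnf, the cytokine that macrophages release first, went from 12.48, 12.57 and 12.66 to 15.73, 15.76 and 15.90 (9.34-fold, SE 0.06 on the log2 scale, adjusted p 6.75e-20). Tnfsf9, the ligand of 4-1BB, went from 9.07, 9.08 and 9.27 to 12.36, 12.43 and 12.58 (9.92-fold, adjusted p 2.01e-18). Il1b went from 10.14, 10.19 and 10.26 to 12.38, 12.29 and 12.48 (log2 2.18, adjusted p 2.20e-14) and Il1a rose by 2.00. These were the 4 of 12 TNF and IL-1 family members tested that rose, each by 4-fold or more. The other 8 lay between -0.02 and 0.50, and 6 of the 12 were called when replicates were paired by number. Among 15 other cytokines 7 rose and 1 of them, Il10, by at least 2-fold. Over all genes tested, 4.45% were called higher and 0.561% rose at least 2-fold. Il10, which damps macrophage activation, went from 5.60, 5.84 and 5.73 to 7.17, 6.75 and 7.26 (log2 1.33, SE 0.13, adjusted p 5.03e-07). Osm rose by 0.91, Il23a by 0.80, Il6 by 0.76 and Csf1 by 0.38. Il12b, which codes for the p40 chain of IL-12, was at 0.24 (adjusted p 0.230) and was called only without replicate 3 at 0 h.

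The neutrophil-attracting chemokines Cxcl1 and Cxcl2 stood apart from the rest of their family. Cxcl2 went from 11.08, 11.05 and 11.18 to 14.33, 14.29 and 14.39 (9.41-fold, SE 0.06 on the log2 scale, adjusted p 5.46e-19). Cxcl1 went from 8.22, 8.21 and 8.23 to 11.20, 11.21 and 11.20 (log2 2.98, SE 0.15, adjusted p 3.77e-12), and its libraries within a group were nearly equal. Of the 10 CXC chemokines tested 4 rose, where 4.45% of all genes tested were called higher. The calls of Cxcl3 (0.35) and of Cxcl10 (0.92), whose product attracts T cells, were lost when only the 6 or only the 12 FosKO libraries were fitted. Of 12 CC chemokines 6 rose, against the same 4.45% of all genes tested. They were led by Ccl3 (12.12, 12.29 and 12.35 without LPS, 13.44, 13.48 and 13.69 with it, log2 1.28), Ccl4 (1.14), Ccl2 (0.89) and Ccl7 (0.72), all of which attract monocytes or other leukocytes. Ccl5 was at 0.48 (adjusted p 0.197) and Cxcl11 at 0.72 (adjusted p 0.127), and both were called when replicates were paired by number (adjusted p 0.0347 and 0.0110). Without replicate 3 at 0.5 h Ccl5 was at 0.13 and Cxcl11 at 0.33, and without replicate 1 at 0.5 h Cxcl11 was at 1.03 and called (adjusted p 0.0199). Cxcl11 was also called without replicate 3 at 0 h, with the 18S term and with the high 18S libraries. The 30 gene lists are plotted together by member.

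**Figure D2:**
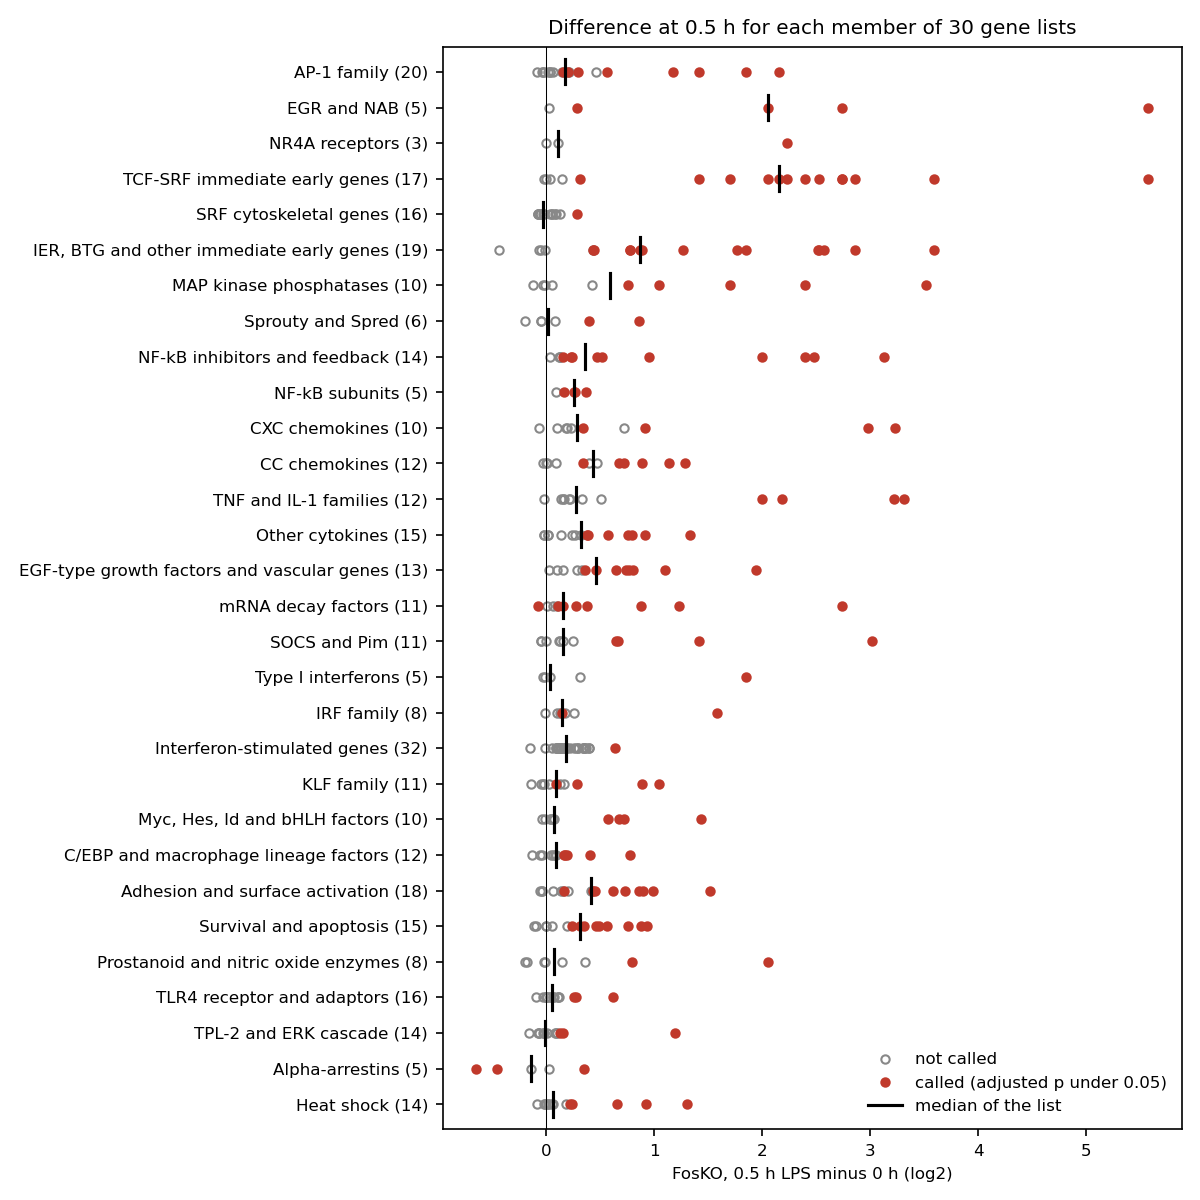
Difference between 0.5 h and 0 h in FosKO (log2) for each tested member of 30 gene lists, with the number tested in parentheses. Filled dots passed the test, open circles did not, and the black bar is the list median. The EGR and TCF-SRF lists have medians above 2. The interferon-stimulated list has a median of 0.18 and 1 called member of 32, where 4.45% of all genes tested were called higher.

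The NF-kB consensus was found before several of the genes described here. It lay 71 bases before the start of Cxcl1 (chr5:90891165-90891193, plus strand) and 97 before that of Cxcl2 (chr5:90903793-90903821, plus strand) and in both 2 matches overlap, so the capitals span both. It lay 29 bases before Nfkbia (chr12:55492657-55492686, minus strand), 92 before Ier3 (chr17:35821611-35821640, plus strand), 13 before Irf1 (chr11:53769991-53770013, plus strand) and 116 before Ifnb1 (chr4:88522891-88522920, minus strand). Il1a (chr2:129309973-129309995, minus strand) held an AP-1 element 12 bases before its start. The capitals are the same letters in Cxcl1 and Cxcl2.
Cxcl1: ctgtactccGGGAATTTCCCtggcccgga
Cxcl2: ctgagctcaGGGAATTTCCCtggtccccg
Nfkbia: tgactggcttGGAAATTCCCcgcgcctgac
Ier3: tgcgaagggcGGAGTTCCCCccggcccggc
Irf1: agtccgggccGGGGAATCCCgct
Ifnb1: aactgaaagtGGGAAATTCCtctgaggcag
Il1a: gcagagaagccTGACTCAgactt

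Interferon beta was already rising at 0.5 h in FosKO cells. Ifnb1, a single-exon gene at chr4:88522025-88522774 on the minus strand, went from 6.10, 6.15 and 6.26 to 7.75, 7.89 and 8.45 (3.62-fold, log2 1.86, SE 0.12, adjusted p 7.03e-10). All stimulated libraries lay above all unstimulated ones, and replicate 3 was highest at both times. The 4 interferon alpha genes tested were near the floor, with Ifna2 at 3.19, 3.18 and 3.17 before and 3.29, 3.35 and 3.85 after LPS (0.32, adjusted p 0.231), and they are near-identical copies that can share reads. Irf1, a transcription factor of interferon and NF-kB responses, rose by 1.58, from 11.74, 12.01 and 12.19 to 13.45, 13.45 and 13.77. Irf5 was the other called member of 8 interferon regulatory factors (0.15, adjusted p 0.0316), a call lost under 8 alternatives. Of all genes tested 4.45% were called higher.

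Of 32 genes induced by interferon, Mx2 alone was called, where 4.45% of all genes tested were called higher (Mx2 at 0.64, adjusted p 0.00344), not so when only the 6 or the 12 FosKO libraries were fitted, and the list median was 0.18 with 30 of the 32 above 0. Isg15 went from 11.38, 11.69 and 11.82 to 11.80, 11.83 and 12.46 (0.40, adjusted p 0.0907) and Mx1 from 12.08, 12.54 and 12.72 to 12.62, 12.59 and 13.32 (0.40, adjusted p 0.183). Both genes were called when replicates were paired by number (adjusted p 0.0123 and 0.0436), which made 3 of the 32, and their groups overlapped. Isg15 was also called with the 18S term, without replicate 1 at 0.5 h and without replicate 3 at 0 h. Levels in this list went with the replicate number in the FosKO cultures. Replicate 3 was highest in 31 of the 32 genes at 0 h and in all 32 at 0.5 h, at both times in 31, against 2878 of 13901 genes tested. The median change by number was 0.30, 0.01 and 0.27 for replicates 1, 2 and 3, and its part in the result was not tested.

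Among receptors and signalling proteins, the gene of TPL-2 itself responded. Map3k8 went from 9.22, 9.32 and 9.37 to 10.43, 10.39 and 10.66 (2.29-fold, log2 1.19, SE 0.06, adjusted p 2.52e-12). Its complex partners Nfkb1 and Tnip2 were at 0.10 and 0.16, the latter a call lost under 8 alternatives, and the genes of ERK1, ERK2, ELK1, ELK3, ELK4 and SRF did not pass. Tlr4 was at -0.0036 (adjusted p 0.976), with 11.57, 11.63 and 11.67 before and 11.65, 11.58 and 11.63 after LPS. Cd14, the co-receptor, rose from 13.95, 13.71 and 13.70 to 14.44, 14.33 and 14.45 (log2 0.62, SE 0.05, adjusted p 4.03e-08). Of 16 genes of the TLR4 receptor and its adaptors 3 rose, where 4.45% of all genes were called higher, and only Cd14 kept its call with the 6 libraries fitted alone. Some surface molecules also rose, with Cd69 at 1.52, the syndecan Sdc4 at 0.99, Cd83 at 0.90, the lectin receptor Clec4e at 0.86 and the adhesion molecule Icam1 at 0.73. In that list 9 of 18 were called, 6 with the 6 libraries fitted alone and 12 when replicates were paired by number.

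Enzyme, growth factor and survival genes rose in part. Ptgs2, cyclooxygenase 2, the inducible enzyme of prostaglandin synthesis, went from 8.38, 8.71 and 8.94 to 10.65, 10.53 and 11.01 (log2 2.05, SE 0.13, adjusted p 1.76e-10). Of the 8 prostanoid and nitric oxide enzymes tested only it and Irg1 (0.80, lost with the 6 or 12 FosKO libraries alone) were called, and Nos2, the inducible nitric oxide synthase, was at 0.36 (adjusted p 0.530). Gdf15, a stress cytokine, rose by 1.94, and 8 of 13 growth factor and vascular genes rose. Of 15 survival genes 9 rose (4.45% of all genes tested did), none by 2-fold, and 3 were called with the 6 libraries fitted alone. They included Bcl2a1b (0.88), one of several near-identical copies between which reads can be split, Pmaip1 (0.49) and Bcl2l11 (0.24), the last 2 encoding pro-apoptotic proteins. The Krueppel-like factor genes Klf2 and Klf6 rose by 1.05 and 0.89, Id3 by 1.44, Myc by 0.67 and Cebpb by 0.78.

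Outside the lists, several other genes rose at least 2-fold. They were chosen for description after their values were seen, and each was also called in LysM-Cre. Gem, a small GTPase, rose by 1.75, the atypical chemokine receptor Ccrl2 by 1.71, the cyclic AMP phosphodiesterase Pde4b by 1.38, the CBP/p300 interactor Cited2 by 1.33 and the IL-6 family cytokine Clcf1 by 1.29. The kinase Sgk1 rose by 1.18, Marcksl1 by 1.18, the GTPase-activating protein Tagap by 1.19, the fatty acid receptor Gpr84 by 1.06 and the growth factor Bmp2 by 1.04.

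At 0.5 h 11 genes fell at least 2-fold, most of them at low level. The 8 largest falls among protein-coding genes with a mean linear value of 50 or more and no overlap between groups were Dnajc28 (-0.65), Txnip (-0.65), Zkscan14 (-0.59), Zkscan8 (-0.59), Rhov (-0.59), Epm2aip1 (-0.57), Zbtb26 (-0.56) and Nhlrc1 (-0.52). Txnip, which binds thioredoxin and limits glucose uptake, went from 12.26, 12.27 and 12.30 to 11.62, 11.53 and 11.75 (SE 0.05, adjusted p 1.29e-08), and its antisense neighbour Gm15441 overlaps it. Rhov, which encodes an atypical small GTPase, went from 7.68, 7.51 and 7.52 to 6.96, 7.04 and 6.95 (adjusted p 1.99e-04). Separate groups were a condition of this ranking. Zkscan14, Zkscan8 and Zbtb26 encode zinc finger proteins with a SCAN or BTB domain, and Nhlrc1 encodes the ubiquitin ligase malin. The calls of Zkscan8, Zbtb26 and Nhlrc1 were lost when the 6 libraries were fitted alone, and that of Nhlrc1 also without single libraries. Arrdc3, an alpha-arrestin related to Txnip, fell by 0.45 and Arrdc4 rose by 0.35, though Arrdc4 was not called without replicate 3 at 0.5 h or replicate 1 at 0 h.

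Non-coding transcripts were more frequent among falls than among all genes tested. Of the 204 lower genes 51 were annotated as long non-coding types (25%), of the 619 higher genes 35 (5.65%), and of all 13901 genes 1107 (7.96%). Genes lowered at least 2-fold were mostly at low level, since 1 of the 11 had a mean linear value of at least 50 and 2 coded for protein, whereas 67 of the 78 raised that much reached this level. The non-coding genes of at least that level that rose most were an antisense transcript of Tnfaip2 (ENSMUSG00000113029, 1.88), Mir155hg (1.71) and Gm42793, a transcript within Spp1 (1.58). Mir155hg, the host transcript of the inflammatory microRNA miR-155, went from 5.57, 5.78 and 5.90 to 7.38, 7.42 and 7.58 (SE 0.08, adjusted p 2.01e-12). Its groups were far apart. Because it is not stated whether counting used the strand, reads of overlapping genes such as the antisense transcript and Tnfaip2 cannot be told apart.

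The genes with rises of at least 2-fold were short. The 66 protein-coding genes that rose at least 2-fold had a median span of 5.15 kb and a median of 4 exons, against 23.8 kb and 9 exons for the 11921 protein-coding genes tested. Of the 66, 72.7% spanned less than 10 kb, against 23.9% of all, and 13.6% had a single exon, against 2.58%. The 9 single-exon genes were Cited2, Gm10382, Gm17334, Hspa1a, Ier2, Ifnb1, Jun, Junb and Sowahc. By span, 32 of 1278 genes under 5 kb rose at least 2-fold, 16 of 1577 of those of 5 to 10 kb and 2 of 1463 of those over 100 kb, and the shares called higher at any size were 7.98%, 6.09% and 2.46%. Over all calls of any size, the median span was 17.1 kb (34.8% under 10 kb) for protein-coding genes called higher and 15.0 kb (33.6%) for those called lower. The share called lower also went from 1.96% under 5 kb to 0.684% over 100 kb. These are descriptions over genes, which are not independent replicates, and span is that of the gene in GENCODE on GRCm38.

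**Figure D3:**
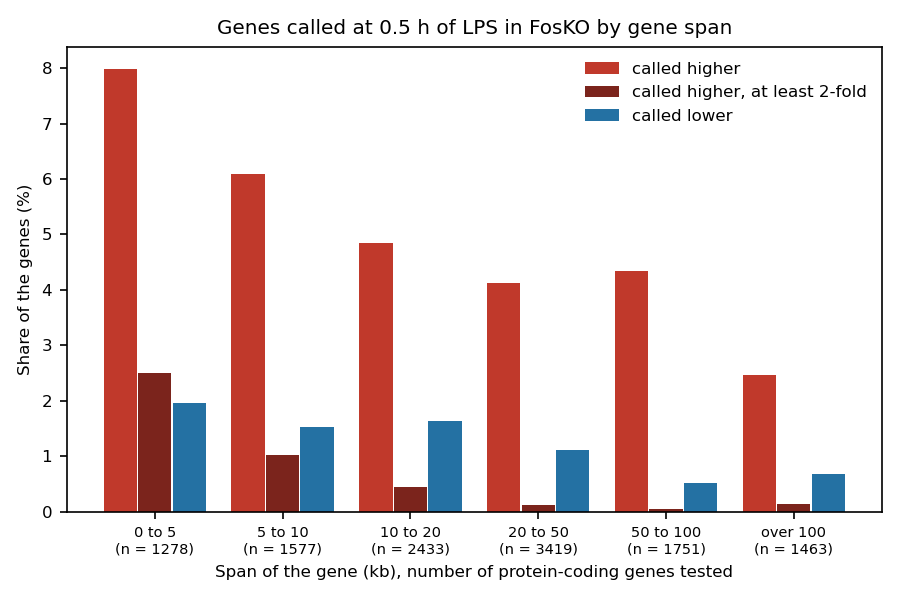
Percentage of protein-coding genes called higher, called higher with at least a 2-fold change and called lower at 0.5 h in FosKO (y axis, bars from 0), by span of the gene in kb (x axis, with the number of genes). In the shortest class 32 of 1278 genes rise at least 2-fold and in the longest 2 of 1463.

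The same 0.5 h comparison in LysM-Cre, which shares no library with it, served to show where the FosKO response differed. LysM-Cre had 1007 genes called (7.24%), 708 higher (5.09%) and 299 lower (2.15%), of which 92 (0.662%) rose and 9 (0.0647%) fell at least 2-fold. Of the 619 genes higher in FosKO 439 (70.9%) were called higher in LysM-Cre, which is 62.0% of the LysM-Cre list, and of the 204 lower 121 (59.3%, and 40.5% of the LysM-Cre list). Among genes raised at least 2-fold, 72 were raised that much in both, 92.3% of the 78 in FosKO and 78.3% of the 92 in LysM-Cre. No gene was called in opposite directions. Of the 78 genes 52 had the larger rise in LysM-Cre (66.7%), where their median was 1.84 against 1.58 in FosKO. The rises of 4 of the leading genes were not called different by limma's interaction test (adjusted p 0.412 for Zfp36 to 0.865 for Egr1), which does not show that they were equal, with Egr1 at 5.58 in FosKO and 5.43 in LysM-Cre, Ier2 at 3.59 and 3.37, Tnf at 3.22 and 3.46 and Zfp36 at 2.74 and 3.08.

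The difference between the 2 responses, tested as an interaction, was called for 16 genes (0.115%), 14 (0.101%) with a negative difference and 2 (0.0144%) with a positive one. The difference was at least 2-fold in 3 (0.0216%) and 1 (0.00719%) of these. Fos itself had the largest difference (-2.26, SE 0.12, adjusted p 1.38e-09), with a rise of 2.41 in LysM-Cre. Nr4a1 differed by -1.15 (rises of 2.24 in FosKO and 3.39 in LysM-Cre, adjusted p 0.00283), Dusp5 by -0.87 (1.70 and 2.57, adjusted p 1.13e-04), Errfi1 by -0.91 (1.36 and 2.27, adjusted p 1.13e-04) and Kdm6b, a histone H3 lysine demethylase, by -0.92 (1.36 and 2.28, adjusted p 1.76e-04). Csf2, the cytokine GM-CSF, differed by -1.08 (adjusted p 0.0105). Csf2 lay between 4.24 and 3.94 in stimulated FosKO libraries (0.27 above 0 h, not called, adjusted p 0.257) and rose in LysM-Cre from 3.75, 3.93 and 3.79 to 5.06, 5.21 and 5.25. The stimulated Csf2 groups did not overlap, though both levels are low. Smaller differences were those of Egr3 (-0.72), Tnfaip3 (-0.52), Hspa1a (-0.50), Ifrd1 (-0.39), Pvr (-0.36), Dusp1 (-0.33) and Nfkbia (-0.31), in all of which FosKO cells still responded. All of these, and Nr4a1, lost the call of a difference when the 12 libraries compared were fitted alone. Hspa1a, Nfkbia and Egr3 also lost it in most fits that left out a library. Gm16184, a pseudogene inside Pvr, differed by -0.85 and lost its call under most alternatives, among them replicates paired by number (adjusted p 0.0685).

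Ifnb1 and Txnip differed in the other direction. For Ifnb1 the LysM-Cre values were 6.05, 6.04 and 6.14 before LPS, then 6.31, 6.41 and 6.30, a difference of 0.26 that was not called (adjusted p 0.277), against 1.86 in FosKO. The interaction was 1.59 (SE 0.18, adjusted p 1.13e-04), and the lowest stimulated FosKO library (7.75) lay above the highest stimulated control (6.41). The fall of Txnip was -1.08 in LysM-Cre against -0.65 in FosKO, an interaction of 0.43 (adjusted p 0.0118). Of the 16 interactions 6 were called when the 12 libraries compared were fitted alone. In all, 9 genes passed with only the high 18S libraries, 10 without LysM-Cre replicate 2 and 9 without replicate 3 at 0.5 h, and 25 when replicates were paired by number. That LysM-Cre replicate 3 was low in 18S (Rn18s-rs5 at 16.76), as was FosKO replicate 1 at 0.5 h (16.65). The genotypes also differed in Lyz2 before LPS, so that Fos and the allele state of Lyz2 cannot be told apart here.

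**Figure D4:**
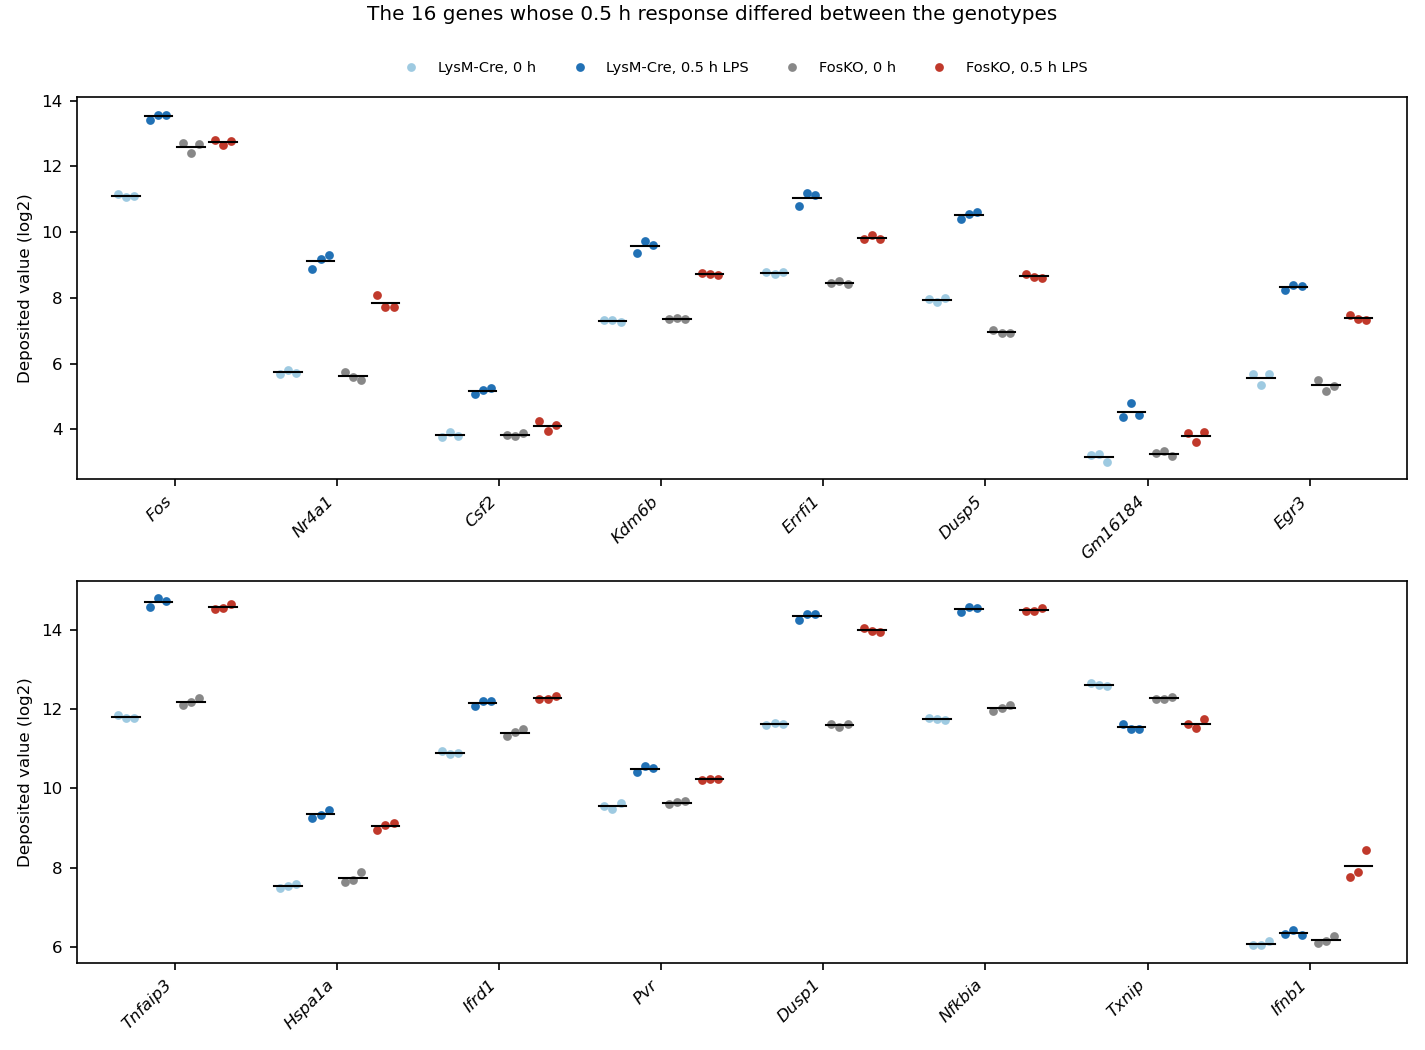
Deposited log2 values of the 16 genes whose 0.5 h response differed between the genotypes, in unstimulated and stimulated libraries of both genotypes. Dots are libraries and bars are group means. Fos stays between 12.41 and 12.81 in FosKO, and Ifnb1 rises to between 7.75 and 8.45 in FosKO while the LysM-Cre libraries at 0.5 h reach 6.41 at most.

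Later times show where the 0.5 h state stood in the whole course. The 1 h and 2 h comparisons share the 0 h libraries with that at 0.5 h, so their values are set side by side without a test. Of the 78 genes raised at least 2-fold at 0.5 h, 17 (21.8%) had their highest FosKO mean at 0.5 h, 33 (42.3%) peaked after 1 h and 28 (35.9%) after 2 h, and the medians of the differences were 1.58, 2.32 and 1.96. For all genes tested 17.0%, 15.6% and 40.6% were highest at these times and the rest at 0 h. Egr1, Ier2 and Btg2 were at their height at 0.5 h, with differences of 5.58, 4.08 and 1.97 for Egr1, 3.59, 2.07 and 0.50 for Ier2 and 2.86, 2.19 and 0.03 for Btg2 at 0.5, 1 and 2 h. By 2 h 20 of the 78 were below a 2-fold rise and 13 lay within 0.50 of their 0 h mean.

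Of the 12 TNF and IL-1 family members 9 had their highest FosKO mean at 2 h, and so had 9 of the 15 other cytokines. The differences of Il1b were 2.18, 4.58 and 5.15 at 0.5, 1 and 2 h, those of the enzyme gene Ptgs2 2.05, 4.00 and 4.97 and those of Il6 0.76, 3.19 and 6.19. Ifnb1 stood at 1.86, 6.01 and 6.72. Some genes that were not called at 0.5 h were far above 0 h later, such as Il12b with 0.24, 3.88 and 6.85 and Nr4a2 with 0.11, 0.56 and 1.07. By list, the medians at the 3 times were 2.16, 2.25 and 0.50 for TCF-SRF immediate early genes. They were 0.36, 1.41 and 1.70 for NF-kB inhibitors and feedback genes, and 0.18, 0.06 and 0.55 for interferon-stimulated genes. For the 5 type I interferon genes they were 0.03, 3.55 and 4.73. The number of genes called higher was 619, 2447 (17.6%) and 4530 (32.6%).

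**Figure D5:**
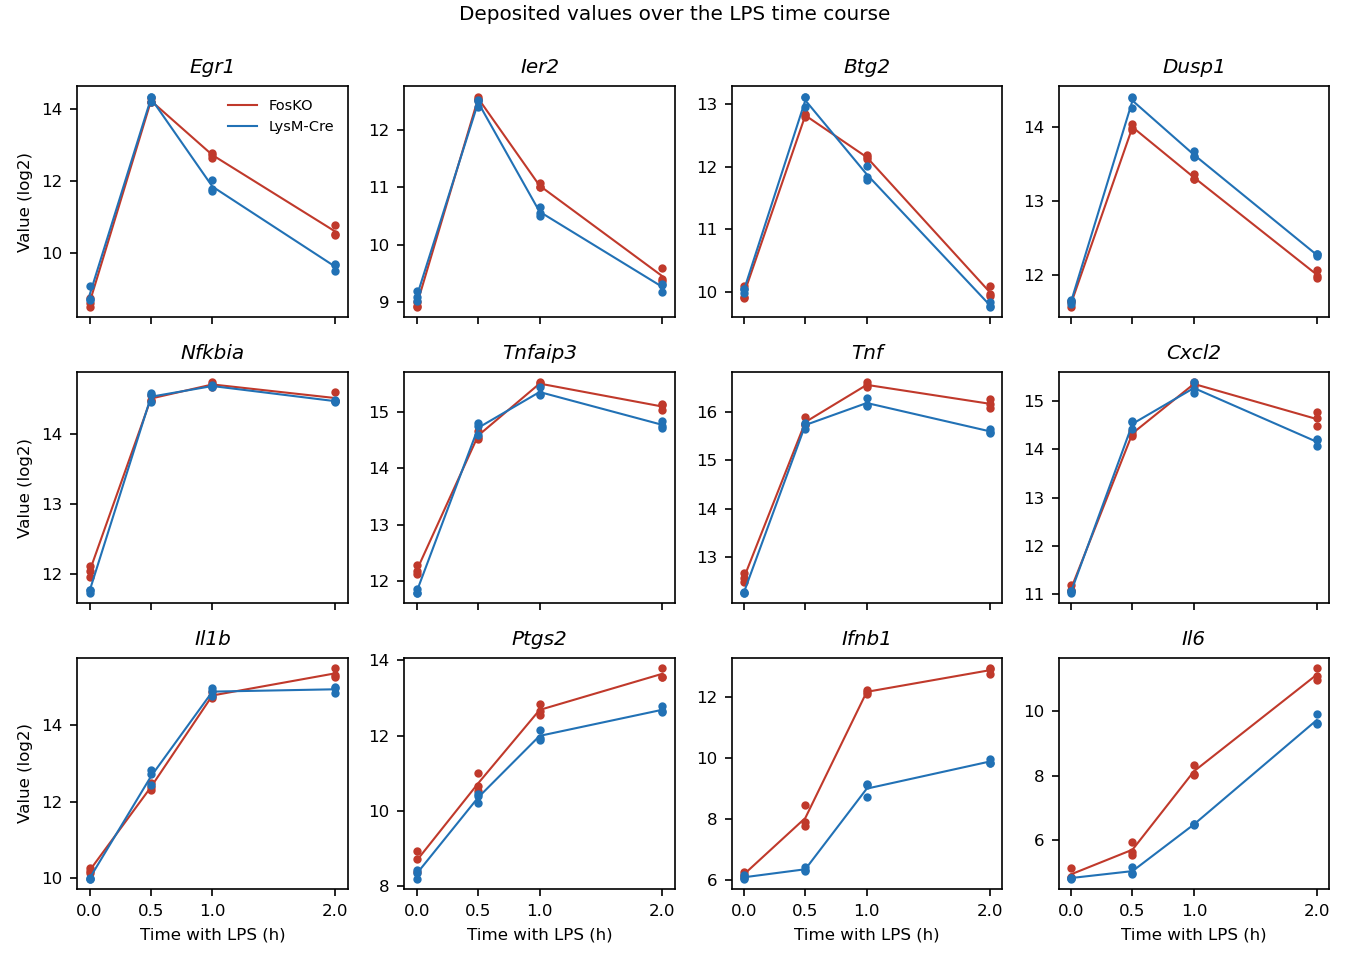
Deposited log2 values (y axis) against hours of LPS (x axis) for 12 genes, with a dot for each library and lines through the means of FosKO and LysM-Cre. Egr1, Ier2, Btg2 and Dusp1 are highest at 0.5 h in FosKO, Il1b, Ptgs2, Ifnb1 and Il6 at 2 h, and the other 4 at 1 h.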

How the data were processed

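Bone marrow-derived macrophages were profiled by RNA sequencing in 8 groups of 3 libraries. According to the study's methods, TruSeq libraries were sequenced from a single end with strand information. The submitters' processing notes name STAR 2.5.2a, RSEM 1.2.31 and DESeq2 1.16.1 used by the authors on the GRCm38 build. Whether strand was used in counting is not given in the sources used here. The authors deposited 1 table of normalised log2 values (-2.22 to 19.39) that resembles a regularised log, which shrinks differences of genes with few reads. The methods give a typical read yield but no number for each library, and counts were not used here, so no counting interval is given and precision rests on the replicates.

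The filter kept genes whose linear value (2 to the power of the deposited one) reached 5 in 3 or more libraries (13901 of 24273). For 32 tested genes another gene had identical values. limma 3.58.1 (R 4.3.3) fitted 8 group means to all 24 libraries, with empirical Bayes on a mean-variance trend, 16 residual degrees of freedom, two-sided tests and Benjamini-Hochberg adjustment over all tested genes. Calls needed an adjusted p under 0.05. The design had allowed for linear values, and limma was run on the log2 values as deposited. An exact permutation test of 3 against 3 libraries cannot give a p below 0.1 and was not used.

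Genes described for their response were named by rule, except for those outside the lists that were chosen after their values were seen. The rule took called genes that code for protein, have a mean linear value of 50 or more and show no overlap between groups. Among them it named the 12 with the largest rise and the 8 with the largest fall. To them were added the 3 largest such non-coding rises, genes whose response differed between genotypes, and list members. The members and lists were chosen with earlier results of these data known. Gene positions are from GENCODE on GRCm38 (99.6% of identifiers found), and promoter sequence is from RefSeq on GRCm38.p6.

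The values do not settle whether replicate numbers pair the libraries. Deviations from the group mean had r across genes of 0.19, 0.13 and 0.27 for same-numbered FosKO libraries, against -0.26 to 0.02 for other pairs. Same-numbered LysM-Cre libraries had 0.13, 0.01 and 0.05. These r are weak, and deviations from a mean of 3 libraries are tied to each other. At 0.5 h LysM-Cre replicate 3 and FosKO replicate 1, both low in 18S, reached 0.63 without a shared number or genotype. On data simulated from each gene's mean over 24 libraries and its spread within groups (13901 genes), changes were planted at 0.5 h in FosKO. The fit recovered 95% of changes of 1 and 75% of changes of 0.5 on the log2 scale, with 9 false calls among 179. The simulated noise was independent between libraries, so deviations that real libraries share were not covered. Alternatives were the samples fitted, scaling, filters, a pseudocount of 1, 18S content, replicate blocks and leaving out each library.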

Additional observations from a re-analysis of the deposited data

Results flagged for a closer look

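The response at 0.5 h differed between the genotypes in 16 genes by the limma interaction test, given as FosKO minus LysM-Cre on the log2 scale. It was negative for Fos (-2.26), Nr4a1 (-1.15), Csf2 (-1.08), Kdm6b (-0.92), Errfi1 (-0.91), Dusp5 (-0.87), Gm16184 (-0.85), Egr3 (-0.72), Tnfaip3 (-0.52), Hspa1a (-0.50), Ifrd1 (-0.39), Pvr (-0.36), Dusp1 (-0.33) and Nfkbia (-0.31). It was positive for Ifnb1 (1.59) and Txnip (0.43). Fos, Ifnb1, Kdm6b, Errfi1 and Dusp5 kept the call under every alternative run, and the other 11 lost it under at least 1. Gm16184, Hspa1a and Nfkbia lost it under most alternatives. Overlapping genes on the same locus (Gm16184 and Pvr, Txnip and Gm15441) may share reads.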

How the results depend on the processing

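Of 179 called genes followed one by one, 124 kept their call under all alternatives run, 55 lost it under at least 1, and none changed direction. Fitting only the 6 libraries compared lost 54 of them, only the 12 FosKO libraries 29, and TMM factors, a pseudocount of 1 or either block none. A filter at 20 left 177 of them in the test and lost none of these. The number of genes called was 823, and 301 with the 6 libraries alone, 469 with the 12 FosKO libraries and between 542 and 960 when a library was left out (542 without FosKO replicate 3 at 0.5 h). Genes changed at least 2-fold numbered 89, and between 82 and 98 under all alternatives. With replicates paired by number within genotype (the replicate block) 1179 genes were called, which ended no call of the 179. Genotype differences were called for 16 genes, for 6 with the libraries compared alone, 9 with the high 18S libraries, 25 after quantile normalisation, 25 with the replicate block and between 9 and 24 when a library was left out.

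Some genes that were not called changed sign near 0. Fosl1 was at -0.0346 with an 18S term, at -0.0559 with the high 18S libraries and between -0.0559 and 0.14 when a library was left out. The range without a library was -0.0614 to 0.0042 for Dusp6, -0.0599 to 0.0422 for Nr4a3, -0.0352 to 0.0062 for Srf, -0.0303 to 0.0199 for Tlr4, -0.0210 to 0.0708 for Nab1 and -0.0289 to 0.68 for Nos2. Nab1 was at -0.0291 after quantile normalisation. The cause of these shifts was not tested.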

Other observations

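Heat shock genes moved in part. Of 14 tested 5 rose, where 4.45% of all genes tested were called higher, and 4 were called with the 6 libraries fitted alone. Among them were Hspa1a (1.31), its near-identical neighbour Hspa1b (0.93), between which reads can be split, and the cochaperone gene Dnajb4, which went from 9.59, 9.60 and 9.49 to 10.23, 10.28 and 10.15 (log2 0.66, adjusted p 2.12e-10). The constitutive chaperone genes Hsp90aa1 and Hsp90ab1 were at 0.03 and 0.02 and did not pass. The macrophage lineage factor Spi1 was at 0.10 (adjusted p 0.0965) and did not pass.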
